A study of Mus musculus with 8 samples.

Results

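The 31 genes described here encode the enzymes of sterol and fatty acid synthesis and the proteins that switch those enzymes on and off. They were read from 21887 protein-coding genes of the RefSeq GRCm38 annotation on chromosomes 1 to 19, X and Y. Their acetylation was read from CUT&Tag peak lists of mouse small intestinal crypts, the pits of the gut lining that hold its stem and Paneth cells. CUT&Tag cuts DNA with a transposase tethered to an antibody, here against H3K27ac (acetylated lysine 27 of histone H3, found at active promoters and enhancers) or H3K9ac (acetylated lysine 9, found mainly at active promoters). A peak no more than 1 kb from the start or the end of a gene made it marked in that list. Peaks were also counted over each locus, meaning the gene body plus 50 kb on each side.

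All mice were C57BL/6J males aged 9 weeks, and the 4 groups crossed feeding with an antibiotic. The groups were fed without tetracycline, fasted for 24 h without tetracycline, fed with tetracycline for 21 days, and fasted for 24 h with tetracycline for 21 days. The study asks how fasting prepares the small intestine for repair, and what the gut microbes contribute to it. No transgene or deletion is named for any group. Crypts were shaken off in EDTA and made into single cells with trypsin. Each of the 8 samples (4 groups in each mark) comes with 2 peak lists, numbered 1 and 2, so each mark has 4 Fed and 4 Fast lists. The labels do not say whether the 2 lists of a sample came from separate mice. With the sample as the unit there is 1 sample per group, and every SE, SD and p-value below measures only the spread between lists, which may be technical. The read depth behind the lists is unknown.

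Animal cells sense their own sterol level in the membrane of the endoplasmic reticulum. When sterols are plentiful, Insig1 and Insig2 hold the Scap protein and its cargo, the SREBP transcription factors encoded by Srebf1 and Srebf2, in that membrane. When sterols are scarce, Scap carries SREBPs to the Golgi, where proteases release the part that enters the nucleus and binds promoters of the synthesis genes. Srebf2 drives mainly the sterol genes and Srebf1 mainly the fatty acid genes, which also respond to insulin and feeding. In the gut, crypt cells are known to make sterols for their own membranes.

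Promoter sequences were available for 25 of the 31 genes, with 34 start sites in all, because 6 genes had several starts. Scd1, Scd2, Sqle, Fdft1, Fdps and Stard4 had no entry. The sequences below are the 250 bases before a start site, from RefSeq GRCm38.p6, printed 5′ to 3′ on the strand of the gene. The first 5 belong to regulators and to an enzyme each of the mevalonate and fatty acid pathways. The last 3 are shown because the annotated outer starts of Insig2 and Pmvk carried no peak in any list, whereas an inner start of Insig2 carried one in every list. Capitals mark matches to TCACNCCAC, the shared core of SREBP binding sites, and to CCAAT or its reverse ATTGG, bound by NF-Y. The positions are chr13:119690101-119690350 (plus strand) for Hmgcs1, chr5:28071162-28071411 (plus) for Insig1, and chr15:82147019-82147268 (plus) for Srebf2. Fasn is shown at chr11:120824548-120824797 (minus strand) and the innermost of the 3 Srebf1 starts at chr11:60210472-60210721 (minus). The Insig2 windows are chr1:121332590-121332839 and chr1:121328025-121328274 (both minus), and the Pmvk window is chr3:89454291-89454540 (plus).
Hmgcs1: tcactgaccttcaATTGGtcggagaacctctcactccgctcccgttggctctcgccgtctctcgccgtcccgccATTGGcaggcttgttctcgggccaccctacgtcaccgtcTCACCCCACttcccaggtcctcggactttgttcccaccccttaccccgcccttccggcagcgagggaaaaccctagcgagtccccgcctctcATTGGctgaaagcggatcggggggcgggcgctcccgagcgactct
Insig1: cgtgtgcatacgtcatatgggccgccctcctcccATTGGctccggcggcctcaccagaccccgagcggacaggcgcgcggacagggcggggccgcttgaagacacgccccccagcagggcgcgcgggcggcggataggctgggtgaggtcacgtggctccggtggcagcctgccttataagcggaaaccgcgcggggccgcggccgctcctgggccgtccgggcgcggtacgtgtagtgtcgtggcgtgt
Srebf2: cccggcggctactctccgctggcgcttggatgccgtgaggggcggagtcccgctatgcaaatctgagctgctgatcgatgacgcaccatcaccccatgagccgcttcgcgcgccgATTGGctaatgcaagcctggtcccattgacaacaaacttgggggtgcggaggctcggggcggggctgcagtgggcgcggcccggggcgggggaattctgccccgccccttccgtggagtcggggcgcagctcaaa
Fasn: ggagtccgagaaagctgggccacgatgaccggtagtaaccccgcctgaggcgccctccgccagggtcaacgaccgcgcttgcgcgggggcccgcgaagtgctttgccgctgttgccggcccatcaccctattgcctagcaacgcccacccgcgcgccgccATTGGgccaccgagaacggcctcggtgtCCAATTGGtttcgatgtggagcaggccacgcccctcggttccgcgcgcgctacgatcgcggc
Srebf1: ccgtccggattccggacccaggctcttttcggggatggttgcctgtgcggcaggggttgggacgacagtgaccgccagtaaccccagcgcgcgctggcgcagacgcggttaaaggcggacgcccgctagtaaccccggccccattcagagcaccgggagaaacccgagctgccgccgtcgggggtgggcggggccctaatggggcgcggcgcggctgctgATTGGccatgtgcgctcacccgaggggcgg
Insig2 outer start: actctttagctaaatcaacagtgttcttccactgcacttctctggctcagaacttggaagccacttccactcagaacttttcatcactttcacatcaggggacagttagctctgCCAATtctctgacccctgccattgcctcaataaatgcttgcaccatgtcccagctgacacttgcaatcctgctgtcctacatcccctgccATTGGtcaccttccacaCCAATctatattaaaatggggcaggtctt
Insig2 first inner start: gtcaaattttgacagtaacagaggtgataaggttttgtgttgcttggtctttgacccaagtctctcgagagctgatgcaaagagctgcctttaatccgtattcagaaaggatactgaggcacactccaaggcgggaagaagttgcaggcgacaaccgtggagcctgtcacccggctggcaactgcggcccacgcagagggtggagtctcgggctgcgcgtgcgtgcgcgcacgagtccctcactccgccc
Pmvk outer start: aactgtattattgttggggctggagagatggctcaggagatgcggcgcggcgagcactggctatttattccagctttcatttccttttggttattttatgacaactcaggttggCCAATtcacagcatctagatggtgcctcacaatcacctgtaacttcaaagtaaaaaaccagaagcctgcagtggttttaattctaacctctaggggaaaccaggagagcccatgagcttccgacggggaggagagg

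The Hmgcs1 window was the only 1 of 34 with a TCACNCCAC match (2.94%, against 1.01% of 21263 promoters of the same length in the table, both strands searched). Only exact matches were counted, so a window without one may still hold an SREBP site that departs from it. CCAAT was found in 22 of 34 member windows (64.7%, against 35.4% of all). GGGCGG, the Sp1 core, was found in 23 (67.6%, against 42.6%), and the E-box CACGTG in 5 (14.7%, against 6.63%). GGGCGG and CACGTG are not capitalised above, and in Fasn a CCAAT and an ATTGG overlap. CpG number and GC content differed by acetylation class in the same direction as in promoters in general. The 23 member windows under an H3K27ac peak in all 8 lists had a median of 20 CpG and 63.2% GC, and the 5 under none had 2 CpG and 47.2% GC. Over all promoters the same classes had 18 CpG with 61.6% GC and 3 CpG with 48.8% GC. CCAAT was in 14 of the 23 and 4 of the 5 (60.9% and 80.0%), against 37.3% and 34.1% of all promoters in these classes.

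The lists differed in size within and between groups. H3K27ac lists held 32392 to 68545 peaks and H3K9ac lists 17249 to 99050. Among H3K9ac lists numbered 1, the Fast lists held 99050 and 97764 peaks and the Fed lists 17249 and 24643. Among those numbered 2, the Fast lists held 35889 and 53313 and the Fed lists 51552 and 54158. Peak width differed as well, with medians of 574 to 1066 bp in H3K27ac lists. In H3K9ac the medians were 834, 559, 728 and 522 bp in Fed lists and 423, 555, 413 and 303 bp in Fast lists. Of 10 epithelial marker genes (Epcam, Cdh1, Vil1, Cdx2 and others), all 10 were marked in every H3K27ac list and 8 to 10 in each H3K9ac list. Of 5 crypt stem cell markers (Lgr5, Olfm4, Ascl2, Smoc2, Axin2), 0 to 2 were marked in each Fed and 3 to 4 in each Fast H3K27ac list, and in H3K9ac 0 to 2 and 1 to 4. Enterocyte markers numbered 5 to 6 of 6 in Fed and Fast H3K27ac lists, and in H3K9ac 5 to 6 in Fed and 3 to 6 in Fast. Paneth and goblet markers numbered 0 to 2 of 5 in Fed and 1 to 4 in Fast H3K27ac lists, and 0 to 4 and 0 to 2 in H3K9ac. Of 9 lymphocyte and myeloid markers, 2 to 4 were marked in Fed and 4 to 5 in Fast H3K27ac lists (H3K9ac 1 to 3 and 2 to 4). Of 7 fibroblast, muscle and endothelial markers, at most 1 was marked in any H3K27ac list and at most 2 in any H3K9ac list. Of all these markers limma called 3 for fasting at gene ends in H3K27ac, by the test described below, which called 0.929% of all genes tested. The number of markers that could be tested is not given here. Ptprc, a gene of blood-derived cells, had no peak in the Fed lists and 415, 448, 530 and 852 bp in the Fast lists (1.89, SE 0.14, adjusted p = 0.017). Mmp7, a Paneth cell protease, had 1062 and 893 bp in the untreated Fast lists and 0 bp in the other 6 (1.28, SE 0.09, adjusted p = 0.015). Cd3e, a T cell receptor subunit, had 1749 and 1342 bp in the untreated Fed lists, 0 bp in both untreated Fast lists, 478 and 553 bp in the treated Fed lists and 1422 and 1097 bp in the treated Fast lists (−1.05, SE 0.13, adjusted p = 0.049). With the block on list number the limma adjusted p for fasting was 0.059, 0.059 and 0.12. limma also called Mmp7 and Cd3e for the interaction, the fasting difference with tetracycline minus that without it (0.642% of genes). It was −2.55 (SE 0.18, limma adjusted p = 0.020) and 4.14 (SE 0.27, limma adjusted p = 0.018). Mmp7 was called for tetracycline too (−1.28, SE 0.09, limma adjusted p = 0.012, 0.794% of genes). With the block the limma adjusted p was 0.076 for both interactions and 0.055 for tetracycline. The part of cell composition and of list size in the results on the 31 genes was not tested except where a value is given. In these bulk lists a change in the share of a cell type and a change in acetylation per cell cannot be told apart.

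H3K27ac marked most of the pathway in every group. In all 8 lists, 21 of the 31 genes (67.7%) carried an H3K27ac peak at a gene end, against 33.6% of all protein-coding genes. They were 4 of the 5 SREBP regulators, 5 of 7 mevalonate enzymes, 9 of 11 squalene and sterol enzymes, 2 of 7 fatty acid genes and the sterol carrier Stard4. No H3K27ac list marked Insig2, Pmvk, Fdft1 or Scd1 (12.9%, against 39.4% of all genes). H3K9ac gene-end peaks were less constant: 9 genes had one in all 8 lists (29.0%, against 21.1% of all), and every gene had one in at least 1 list, whereas 25.2% of all genes had none. The same number, 9, had a peak of both marks in all 16 lists (29.0%, against 17.6%). Those 9 were Scap, Hmgcs1, Idi1, Mvd, Acat2, Cyp51, Hsd17b7, Ebp and Tm7sf2. Another protein-coding gene ends within 2 kb of 16 of the 31 genes, for example Mmab beside Mvk, Akap9 beside Cyp51 and Ccdc57 beside Fasn, and peaks there could not be assigned to 1 of the pair.

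**Figure D1:**
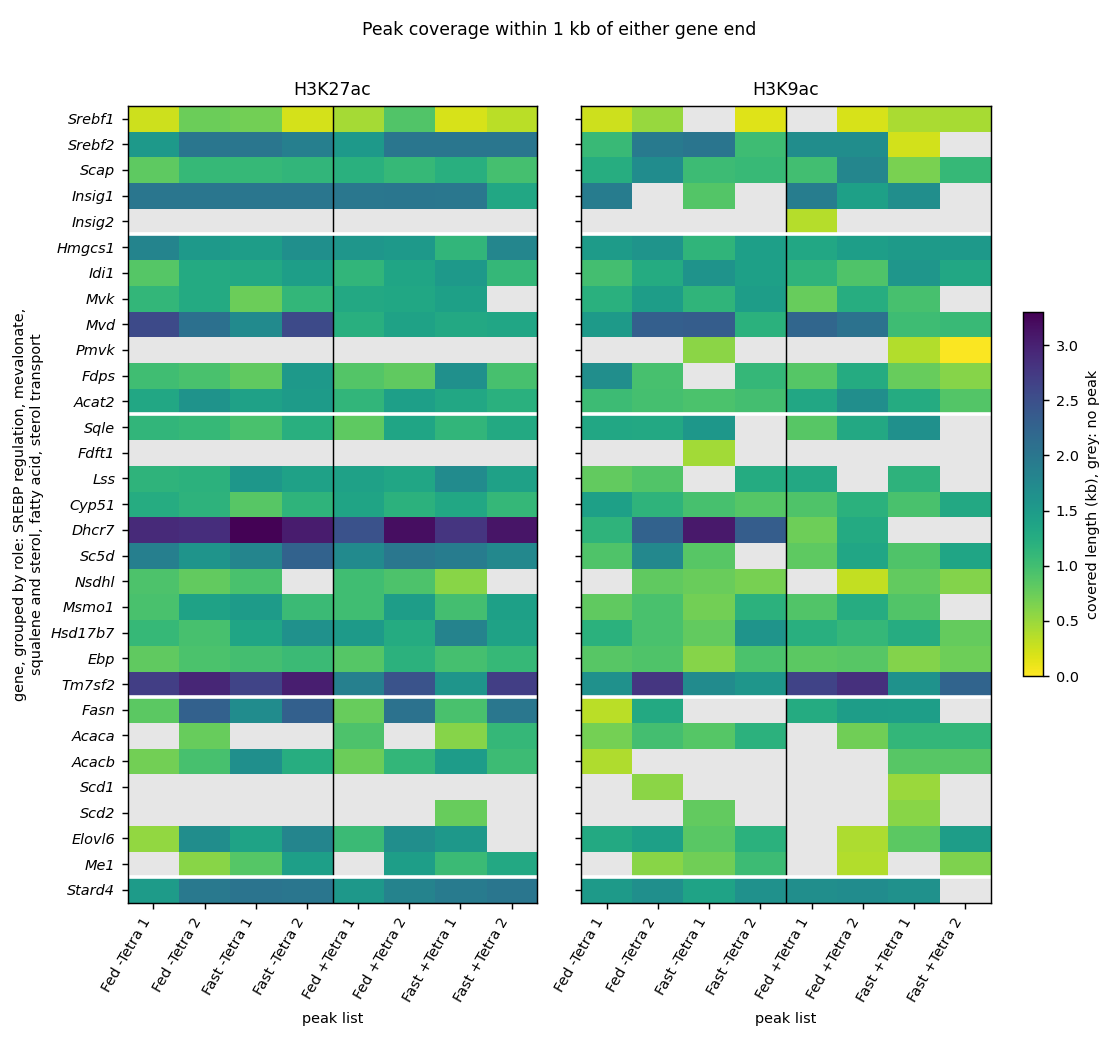
Length covered by peaks within 1 kb of either gene end (colour, kb; grey means no peak) for the 31 genes (rows, grouped by role) in the 8 lists of each mark (columns). H3K27ac covers 21 genes in all 8 lists and none of Insig2, Pmvk, Fdft1 and Scd1, while H3K9ac covers 9 genes in all 8 lists.

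Between Fed and Fast lists the number of marked genes was close. H3K27ac marked 24, 26, 25 and 25 of the 31 in the Fed lists and 25, 24, 27 and 23 in the Fast lists, a mean of 25 ± 0.816 against 24.8 ± 1.71 (SD, n = 4 lists each). H3K9ac marked 24, 25, 21 and 24 in the Fed lists and 24, 21, 27 and 18 in the Fast lists, or 23.5 ± 1.73 against 22.5 ± 3.87. The ranges overlapped in both marks, and the Fast lists contained both the highest and the lowest count of each. The direction followed the list number: among lists numbered 1 the Fast mean exceeded the Fed mean by 1.5 genes in H3K27ac and 3.0 in H3K9ac, and among lists numbered 2 it was −2.0 and −5.0. Over all protein-coding genes the share marked moved likewise, by 5.62 and −2.63 percentage points in H3K27ac and by 9.64 and −7.37 in H3K9ac.

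**Figure D2:**
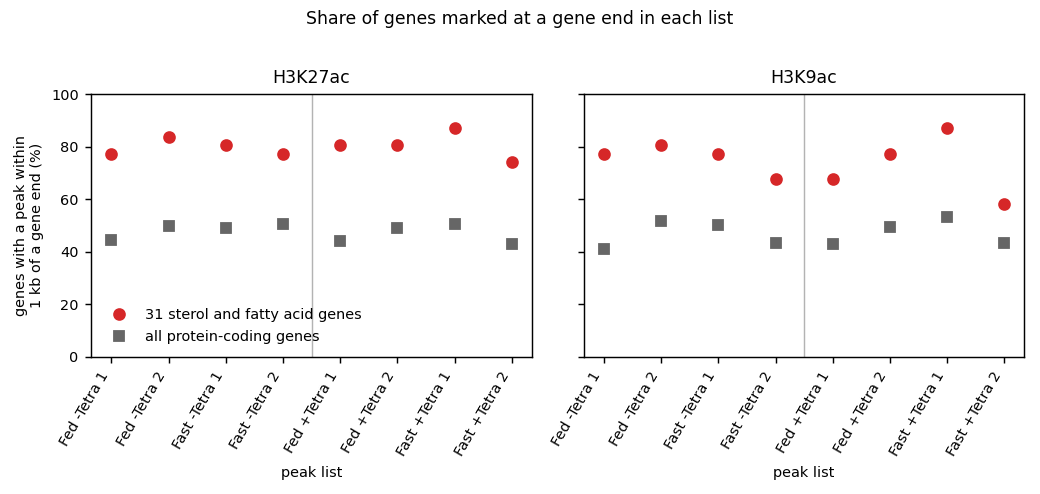
Share of genes marked at a gene end (%, y axis) in each list (x axis), for the 31 sterol and fatty acid genes (red circles) and all 21887 protein-coding genes (grey squares). The 31 genes lie above all genes in each of the 16 lists, with the lowest value, 58.1%, in the second H3K9ac list of fasted mice with tetracycline.

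Covered length at gene ends did not separate fed from fasted for any of the 31 genes by the test across all genes. limma was fitted to log2(covered bp + 200) of genes with a peak in at least 2 of the 8 lists of a mark, with Benjamini-Hochberg adjustment over all genes and a threshold of 0.05. In H3K27ac 0 of the 26 members tested were called for fasting (1 at an unadjusted p under 0.05), where 110 of 11840 genes were (0.929%, 758 unadjusted). In H3K9ac 0 of 29 were called (2 unadjusted) and 0 of 13204 genes (0.0%, 926 unadjusted). The median member difference, Fast minus Fed, was 0.07 in H3K27ac and −0.24 in H3K9ac on the log2(bp + 200) scale, and over all genes 0.06 and −0.03. With lists centred on their medians the H3K27ac member median became −0.03, so its sign was not fixed. No member had all 4 Fast lists above or below all 4 Fed lists in H3K27ac (3.79% and 0.541% of the genes tested did), nor all Fast below all Fed in H3K9ac (1.7%).

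The H3K9ac result depended on how many peaks each list contributed. When every H3K9ac list was cut to its 17249 highest-scoring peaks, the size of the smallest list, 24, 23, 21 and 18 of the 31 genes were marked in the Fed lists and 10, 19, 9 and 11 in the Fast lists, and the ranges overlapped only between 18 and 19. The mean difference was then −9.25 genes instead of −1.0. All protein-coding genes moved in the same direction, from 37.5 to 41.1% marked in Fed lists to 22.6 to 35.4% in Fast lists, and the median difference of all genes became −0.63. Under this setting 22 members were marked in more Fed than Fast lists (33.6% of all genes were) and 1, Nsdhl, in more Fast lists (7.58%). Srebf2 and Fasn were marked in all 4 Fed and no Fast list, which 0.567% of all genes were. limma called both, Srebf2 at −3.07 (SE 0.25, adjusted p = 0.0089) and Fasn at −2.21 (SE 0.25, adjusted p = 0.017), among 2.19% of the genes tested. Their adjusted p with all peaks was 0.38 and 0.74.

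Among the SREBP regulators, Srebf2, the sterol branch factor, carried H3K27ac in every list. Its H3K27ac coverage was 1521 and 2001 bp in the 2 lists of untreated fed crypts (list 1, then list 2, as in every pair below) and 2000 and 1878 bp in untreated fasted crypts. With tetracycline it was 1532 and 2001 bp fed and 2001 bp in both fasted lists. Fed and fasted lists overlapped. The window around 1 gene end is 2001 bp wide, and coverage there cannot exceed it. The Srebf2 H3K9ac coverage was 1068 and 1959 bp fed and 2017 and 1027 bp fasted without tetracycline. With tetracycline it was 1688 and 1681 bp fed and 226 and 0 bp fasted. The 2 lowest H3K9ac values were thus both from fasted mice with tetracycline. The fasting difference over both states was −1.35 (SE 0.38, limma adjusted p = 0.38, exact permutation p = 0.17 over 36 arrangements, two-sided, where the smallest possible is 0.056).

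Srebf1, whose protein drives the fatty acid branch, had 3 annotated starts with H3K27ac over 8, 8 and 7 lists and H3K9ac over 3, 5 and 6, from the outermost to the innermost, which is printed above. These starts lie 1605, 3559 and 13715 bp inside the gene, so none is within 1 kb of a gene end. Another gene, Rai1, has an end within 2 kb of a Srebf1 end. At the gene ends of Srebf1 H3K27ac covered 247 and 741 bp fed and 703 and 210 bp fasted without tetracycline. With tetracycline it covered 441 and 896 bp fed and 194 and 342 bp fasted. The groups overlapped, and the difference was −0.48 (SE 0.40, limma adjusted p = 0.85). H3K9ac covered 252 and 504 bp fed and 0 and 164 bp fasted without tetracycline, and 0 and 200 bp fed and 424 and 432 bp fasted with it. Both fasted lists were therefore below both fed lists without tetracycline and above them with it, an order that Hmgcs1 and Elovl6 shared and 1.86% of the genes tested had.

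Insig1, an SREBP target that feeds back on Scap, was covered by H3K27ac over 2001 bp in all 4 lists without tetracycline. This is the full window at 1 gene end, so values at this limit cannot show a difference there. With tetracycline Insig1 was covered over 1989 and 2001 bp fed and 1997 and 1319 bp fasted. Its H3K9ac coverage was 1914 and 0 bp fed and 877 and 0 bp fasted without tetracycline, then 1898 and 1424 bp fed and 1672 and 0 bp fasted with it. All 3 lists without an H3K9ac peak were numbered 2, from both feeding states. Scap, the carrier of SREBPs, had a peak in all 16 lists. Its H3K27ac covered 813 and 1089 bp fed and 1091 and 1125 bp fasted without tetracycline, and 1201 and 1091 bp fed and 1224 and 970 bp fasted with it, and its H3K9ac 659 to 1786 bp. Its H3K27ac difference was 0.07 (SE 0.13, limma adjusted p = 0.91). With only the 32392 highest-scoring peaks of each H3K27ac list, the size of the smallest, both untreated fasted lists lost the Scap peak (0 bp against 813 to 1224 bp in the other 6). limma then called it for fasting at −1.29 (SE 0.13, adjusted p = 0.012), among 1.83% of genes, and for tetracycline at 1.46 (SE 0.13, adjusted p = 0.0085).

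Insig2, the second retention protein, showed that gene ends alone miss part of the pathway. At its gene ends there was no H3K27ac peak in any list, and H3K9ac only in the first fed list with tetracycline (371 bp). Its outer annotated start, 73 bp inside the gene, had no peak of either mark. Both inner starts, 4638 and 4984 bp inside, lay under a peak in all 8 lists of both marks. Of the 2 Insig2 windows printed above, the outer one has 0 CpG and 47.2% GC and the inner one 16 CpG and 56.8% GC. The same held for Pmvk, phosphomevalonate kinase, whose outer start had no peak while its inner start, 5030 bp inside, had H3K27ac in 8 lists and H3K9ac in 3, all 3 from fed mice. Its gene-end H3K9ac was 568 bp in the first untreated fasted list, 379 and 14 bp in the fasted lists with tetracycline, and absent from the other lists.

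**Figure D3:**
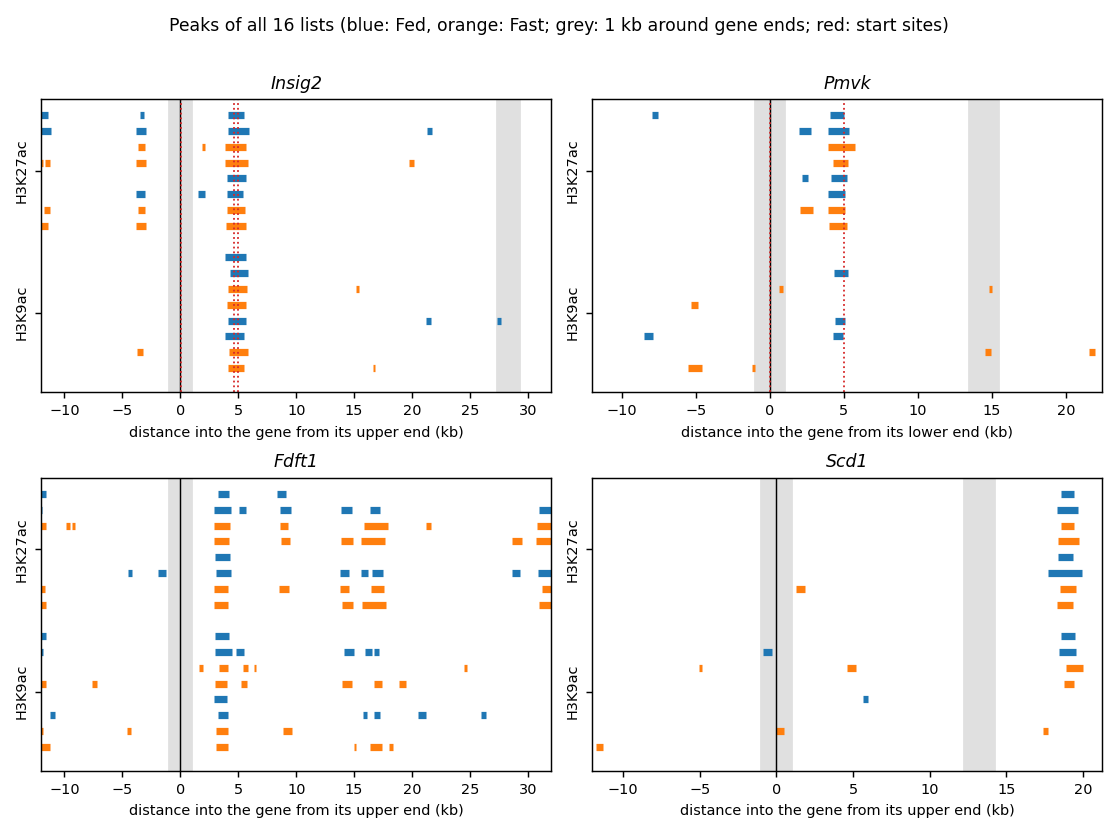
Peaks of all 16 lists (bars; blue fed, orange fasted) along Insig2, Pmvk, Fdft1 and Scd1, as distance into the gene from the end nearest its start (kb, x axis), with 1 kb around each gene end in grey and annotated starts dotted red. Insig2 peaks stand over the inner starts in all 16 lists and none stands at its outer start, while Scd1 has no constant peak inside the gene.

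The mevalonate enzymes, which build the isoprenoid units of sterols, were marked in all 8 lists for 5 of 7 genes in H3K27ac and 4 of 7 in H3K9ac. Hmgcs1, HMG-CoA synthase, had H3K27ac over 1814 and 1520 bp fed and 1458 and 1657 bp fasted without tetracycline, and 1564 and 1529 bp fed and 1129 and 1781 bp fasted with it. Its H3K9ac covered 1488 and 1587 bp fed and 1145 and 1435 bp fasted without tetracycline, and 1325 and 1456 bp fed and 1501 and 1525 bp fasted with it. The fasting differences of −0.10 (SE 0.16) and −0.06 (SE 0.19) were below the spread between lists. The TCACNCCAC match printed above lies in the Hmgcs1 start window, which a peak overlapped in all 16 lists. Whether each peak reached the match itself was not tested.

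Idi1, isopentenyl diphosphate isomerase, was the only member whose 4 Fast lists all exceeded its 4 Fed lists at a gene end in either mark. Its H3K9ac coverage was 984 and 1268 bp fed and 1604 and 1430 bp fasted without tetracycline, and 1156 and 910 bp fed and 1561 and 1327 bp fasted with it. This order occurred in 1.12% of the genes tested. The difference was 0.40 (SE 0.21, exact permutation p = 0.056, the smallest this design allows, limma adjusted p = 0.87). Its coverage was the same bp for bp with the 17249 highest-scoring peaks. In H3K27ac the Idi1 groups overlapped, with Fed means of 1162 bp and Fast means of 1347 bp.

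Mvd, the diphosphomevalonate decarboxylase beside Cyba, was the member whose gene-end H3K27ac separated by tetracycline. Its H3K27ac coverage was 2565, 2088, 1722 and 2557 bp in the 4 lists without tetracycline and 1221, 1402, 1311 and 1349 bp in the 4 with it, so every treated list was below every untreated one, as in 1.22% of genes tested. The difference was −0.66 (SE 0.16, limma adjusted p = 0.45). Its H3K9ac overlapped, with 2206 and 2058 bp in the treated fed lists and 1504 and 2299 bp in the untreated fed lists. Mvk, mevalonate kinase, and Fdps, farnesyl diphosphate synthase, had H3K27ac in 7 and 8 lists and H3K9ac in 7 each. The Fdps H3K9ac coverage was 1673 and 959 bp fed and 0 and 1100 bp fasted without tetracycline, and 867 and 1268 bp fed and 769 and 600 bp fasted with it. Mvk was missing in both marks from the second list of fasted mice with tetracycline, and Fdps in H3K9ac from the first untreated fasted list. The Mvk H3K27ac coverage was 1114 and 1278 bp fed and 744 and 1121 bp fasted without tetracycline, and 1310 and 1330 bp fed and 1425 and 0 bp fasted with it. Its H3K9ac coverage was 1201 and 1469 bp fed and 1141 and 1459 bp fasted without tetracycline, and 763 and 1250 bp fed and 965 and 0 bp fasted with it. The H3K27ac difference of −0.87 (SE 0.68, limma adjusted p = 0.85) was called only when the first fasted list with tetracycline was left out (−1.62, SE 0.17, limma adjusted p = 0.024), which left the list without a peak as the only one of its group and called 4.38% of genes. Acat2, which makes acetoacetyl-CoA, was marked in all 16 lists, over 1132 to 1606 bp in H3K27ac and 877 to 1672 bp in H3K9ac.

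The squalene and sterol enzymes were marked by H3K27ac in all 8 lists except for Fdft1 and Nsdhl. Sqle, squalene epoxidase, had H3K27ac over 1122 and 1084 bp fed and 951 and 1222 bp fasted without tetracycline, and 818 and 1354 bp fed and 1128 and 1296 bp fasted with it. Its H3K9ac was 1320 and 1314 bp fed and 1557 and 0 bp fasted without tetracycline, and 854 and 1302 bp fed and 1638 and 0 bp fasted with it. All 4 fed lists held a peak and both empty lists were fasted lists numbered 2, while the fasted lists numbered 1 were the highest of all. The difference of −1.20 (SE 0.97) had a limma adjusted p of 0.87.

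Dhcr7, which makes the final reduction to cholesterol, had H3K27ac coverage between 2472 and 3279 bp, with no empty list. Its H3K9ac coverage was 1154 and 2267 bp fed and 3073 and 2326 bp fasted without tetracycline, then 724 and 1278 bp fed and 0 bp in both fasted lists with it. Without tetracycline both fasted lists were above both fed lists, and with it both were below (0.841% of the genes tested). The fasting difference was 0.65 (SE 0.43, limma adjusted p = 0.95) without tetracycline and −2.55 (SE 0.43, limma adjusted p = 0.11) with it. The tetracycline difference was −2.25 (SE 0.30, limma adjusted p = 0.13), and the test of the interaction gave −3.20 (SE 0.61, limma adjusted p = 0.20). Its inner start, 7047 bp inside the gene, kept a peak in all 8 lists of both marks, and its outer start had H3K9ac in 5 lists.

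Nsdhl, a sterol decarboxylase on the X chromosome, had opposite list counts in the 2 marks. H3K27ac was present in 4 Fed and 2 Fast lists and H3K9ac in 2 Fed and 4 Fast lists. In H3K27ac it covered 922 and 789 bp fed and 951 and 0 bp fasted without tetracycline, and 1011 and 924 bp fed and 592 and 0 bp fasted with it. In H3K9ac it covered 0 and 805 bp fed and 756 and 673 bp fasted without tetracycline, and 0 and 297 bp fed and 790 and 615 bp fasted with it. Neither difference, −1.34 (SE 0.71) or 1.27 (SE 0.60), passed (limma adjusted p = 0.85 and 0.87).

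Fdft1, squalene synthase, had no gene-end H3K27ac and 1 H3K9ac peak there (463 bp, first untreated fasted list). A region inside the gene, chr14:63177304-63178794, held H3K27ac in all 8 lists, and chr14:63177234-63178773 held H3K9ac in all 8. Every H3K27ac list marked Lss, lanosterol synthase, Msmo1, a sterol methyl oxidase, and Sc5d, a sterol desaturase, and H3K9ac marked them in 5, 7 and 7 lists. The Msmo1 H3K9ac coverage was 811 and 951 bp fed and 700 and 1175 bp fasted without tetracycline, and 898 and 1260 bp fed and 898 and 0 bp fasted with it. Cyp51, the lanosterol demethylase, Hsd17b7, Ebp and Tm7sf2 were marked in all 16. The Cyp51 H3K9ac coverage was 1430 and 1154 bp fed and 964 and 876 bp fasted without tetracycline, and 907 and 1187 bp fed and 945 and 1304 bp fasted with it, so its groups overlapped. Ebp, the sterol isomerase beside Porcn, had H3K9ac over its own start window in only 1 list although a peak lay within 1 kb of a gene end in all 8.

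Of the 7 fatty acid genes, 2 were marked in all 8 H3K27ac lists and 0 in all 8 H3K9ac lists. Those 2 were Fasn, the fatty acid synthase, and Acacb, the acetyl-CoA carboxylase that makes malonyl-CoA at mitochondria. Fasn H3K27ac was 835 and 2274 bp fed and 1700 and 2282 bp fasted without tetracycline, and 771 and 2054 bp fed and 951 and 1994 bp fasted with it. List 2 was the higher in all 4 pairs. Its H3K9ac was 337 and 1295 bp fed and 0 bp in both fasted lists without tetracycline, and 1267 and 1467 bp fed and 1448 and 0 bp fasted with it. All 4 fed lists and 1 of 4 fasted lists held a peak. The H3K9ac difference was −1.80 (SE 0.74, limma adjusted p = 0.74, exact permutation p = 0.11). The fasted list with a peak was the first with tetracycline, at 97764 peaks the second largest. The largest, the first untreated fasted list at 99050 peaks, had 0 bp.

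Acacb H3K27ac was 702 and 966 bp fed and 1651 and 1243 bp fasted without tetracycline, and 741 and 1112 bp fed and 1470 and 1032 bp fasted with it. Only the second fed and second fasted list with tetracycline broke the order, and the difference was 0.52 (SE 0.20, limma adjusted p = 0.76, exact permutation p = 0.11). Acacb H3K9ac was 391 bp in the first untreated fed list, 859 and 863 bp in the fasted lists with tetracycline and absent from the other 5. The fasting difference with tetracycline was 2.41 (SE 0.53, limma adjusted p = 0.26). It was called when peaks under 500 bp were left out, at the same 2.41 (SE 0.24, limma adjusted p = 0.029), a setting that called 1.27% of genes. The annotated Acacb start, 19197 bp inside the gene, had no peak in any list.

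**Figure D4:**
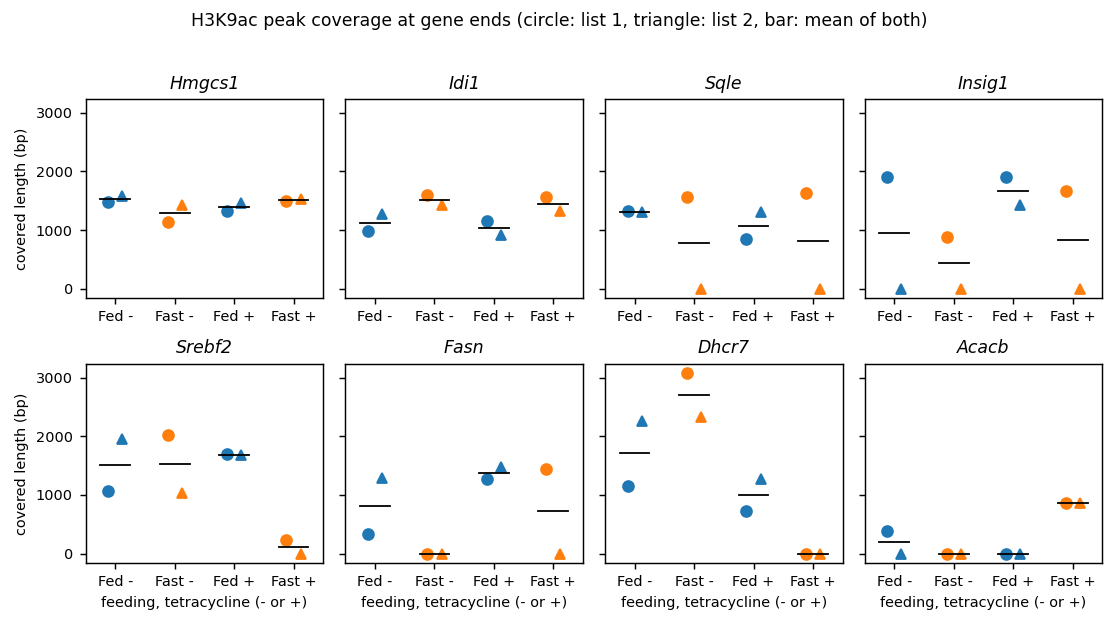
H3K9ac peak coverage at gene ends (bp, y axis) of 8 genes in the 4 groups (x axis; Fed or Fast, without or with tetracycline), with list 1 as circles, list 2 as triangles and the mean of both as a bar. Idi1 has all Fast lists above all Fed lists, and Dhcr7 goes from 3073 and 2326 bp in untreated fasted lists to 0 bp in both fasted lists with tetracycline.

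Acaca, the cytosolic acetyl-CoA carboxylase, had gene-end H3K27ac in 4 lists: 770 bp in the second untreated fed list, 917 bp in the first fed list with tetracycline, and 604 and 1103 bp in the fasted lists with it. Its H3K9ac was present in 7 lists. Scd1, a stearoyl-CoA desaturase, had no gene-end H3K27ac, and H3K9ac of 580 bp in the second untreated fed list and 498 bp in the first fasted list with tetracycline. Scd2 had H3K27ac in 1 list (769 bp, first fasted list with tetracycline) and H3K9ac in the first fasted lists without and with tetracycline (797 and 582 bp). The nearest H3K27ac region present in all 8 lists was chr19:44387786-44389976 for Scd1, 4474 bp outside the gene, and chr19:44283884-44285275 for Scd2, 8401 bp outside. The 2 desaturase loci share part of their windows.

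Elovl6, an elongase, had H3K27ac in 7 lists and H3K9ac in 7, and was empty in H3K27ac in the second list of fasted mice with tetracycline. Its H3K9ac was 1301 and 1425 bp fed and 840 and 1198 bp fasted without tetracycline, and 0 and 411 bp fed and 825 and 1463 bp fasted with it. Me1, malic enzyme, which supplies NADPH, had H3K27ac in 2 Fed lists, both numbered 2 (587 and 1445 bp), and in all 4 Fast lists (873, 1437, 1056 and 1302 bp). The difference of 1.5 (SE 0.81) did not pass (limma adjusted p = 0.85). Both empty lists were the smallest H3K27ac lists, at 36340 and 32392 peaks. The second fasted list with tetracycline, at 36737 peaks, held 1302 bp. With the 32392 highest-scoring peaks of each list, Me1 was marked in 1 Fed and 4 Fast lists (6.89% of all genes were marked in more Fast lists). Its H3K9ac was found in 2 Fed and 3 Fast lists.

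Stard4, a sterol carrier of the cytosol, had H3K27ac in all 8 lists. It covered 1490 and 1962 bp fed and 2035 and 2001 bp fasted without tetracycline. With tetracycline it covered 1534 and 1820 bp fed and 1921 and 2001 bp fasted. Both fasted lists were above both fed lists in each tetracycline state, but not across states. The difference was 0.21 (exact permutation p = 0.056, the smallest this design allows). The share of all genes with this order is not given here. The Stard4 H3K9ac covered 1500 and 1662 bp fed and 1382 and 1630 bp fasted without tetracycline. With tetracycline it covered 1671 and 1699 bp fed and 1637 and 0 bp fasted. The second list of fasted mice with tetracycline was the only one without a peak. The difference of −0.85 (SE 0.70, limma adjusted p = 0.87) was called only when the first list of that group was left out (−1.65, SE 0.16, limma adjusted p = 0.043, with 3.3% of genes called). That second list also lacked H3K9ac at Srebf2, Insig1, Mvk, Sqle, Fdft1, Lss, Dhcr7, Msmo1, Fasn, Scd1, Scd2 and Insig2, and marked 18 of the 31 genes, the fewest of the 16 lists.

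Counting lists per gene gave the same mixed picture. Between Fast and Fed, H3K27ac differed by at least 2 lists for Me1 (more Fast; 3.42% of all genes) and Nsdhl (more Fed; 1.9%). H3K9ac differed by at least 2 lists towards Fast for Scd2, Pmvk and Nsdhl (5.89%) and towards Fed for Sqle, Fasn and Dhcr7 (4.82%). In H3K9ac 12 genes were marked in more Fed lists (20.7% of all genes were) and 8 in more Fast lists (23.8%). Without tetracycline Fasn alone had H3K9ac in both Fed and no Fast list (1.48%), and with it Dhcr7 alone (1.23%). Acacb and Pmvk had it in both Fast and no Fed list with tetracycline (1.93%).

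Across the wider loci, most members had more peaks in Fast lists, as most genes did. The median member difference in log2(peaks + 1) was 0.15 for H3K27ac, against 0.24 for all 18510 genes tested. For H3K9ac it was 0.38, against 0.57 for 21106 genes, and it turned to −0.38 with the 17249 highest-scoring peaks per list. The direction depended on the list number: the median peak number per member locus was higher in Fast lists by 1.5 in H3K27ac and 6.0 in H3K9ac among lists numbered 1, and the difference was −0.50 and −2.0 among lists numbered 2. A positive difference was found for 23 of 31 members in H3K27ac (80.1% of all genes) and 29 of 31 in H3K9ac (92.2%). limma called 0 members and 0 genes for fasting in either mark (0.0%), with 0 and 2 members and 1951 and 2126 genes at an unadjusted p under 0.05. Most H3K27ac peaks per locus lay around Tm7sf2, with 15, 20, 15 and 25 in the Fed and 20, 19, 19 and 17 in the Fast lists, and Elovl6, with 17, 22, 15 and 21 Fed and 18, 19, 18 and 17 Fast. Fewest lay around Scd1, with 1 in every Fed list and 5, 1, 2 and 1 in the Fast lists, and Cyp51, with 2, 1, 1 and 3 Fed and 2, 2, 3 and 1 Fast. These 4 overlapped between the feeding states. In H3K9ac Tm7sf2 again had the most, 12, 21, 10 and 15 Fed and 14, 11, 17 and 14 Fast, followed by Acaca with 5, 8, 7 and 10 Fed and 21, 7, 19 and 10 Fast. Cyp51 had 1, 2, 1 and 2 Fed and 1, 1, 4 and 5 Fast, and Insig2 1, 2, 3 and 1 Fed and 4, 1, 3 and 2 Fast. The Fast lists with 21 and 19 Acaca peaks were both numbered 1, the largest H3K9ac lists.

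**Figure D5:**
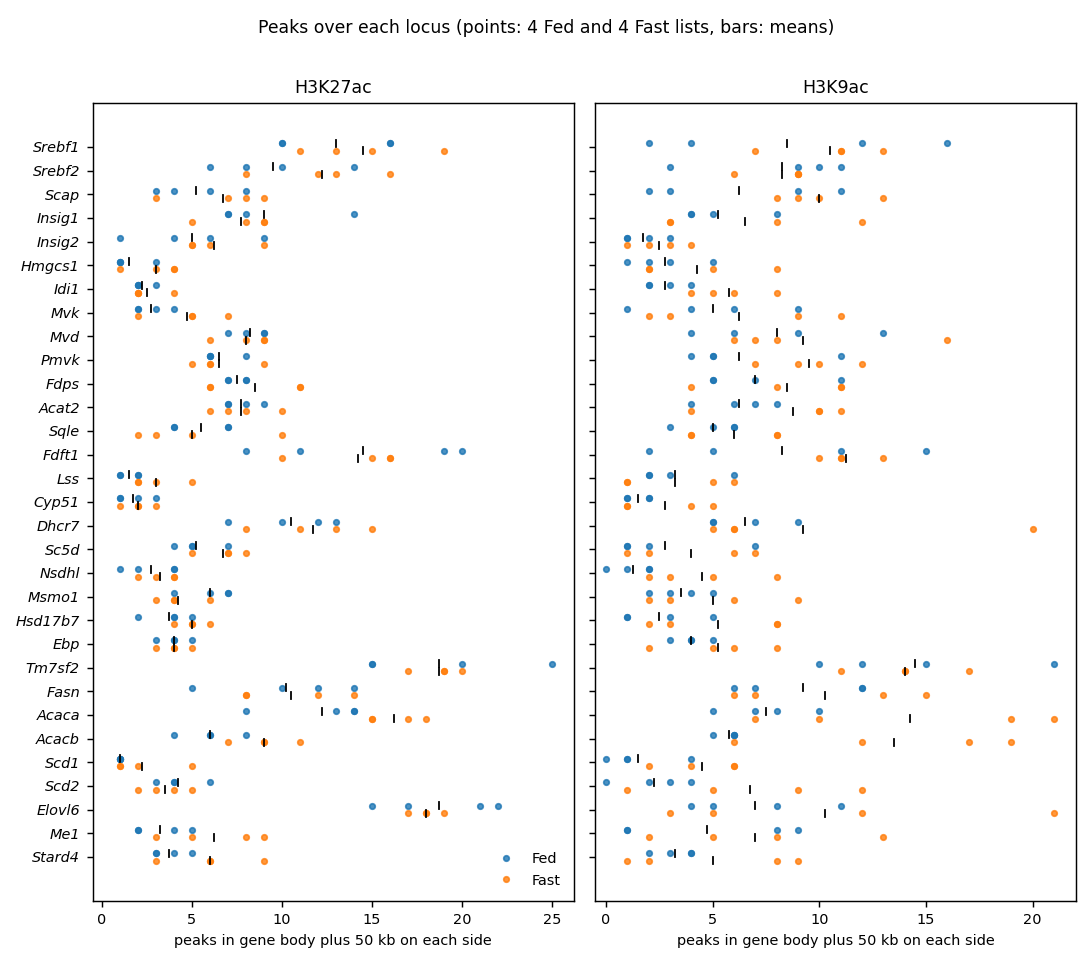
Number of peaks over the gene body plus 50 kb on each side (x axis) for the 31 genes (rows) in the 4 Fed (blue) and 4 Fast (orange) lists of each mark, with group means as bars. Only Acaca in H3K27ac has all Fast lists (15 to 18 peaks) above all Fed lists (8 to 14).

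Acaca was the single member whose H3K27ac locus counts did not overlap between Fed (8, 14, 14 and 13) and Fast (18, 15, 17 and 15), as in 2.18% of the genes tested. In H3K9ac no member had all Fast lists above all Fed lists over its locus, where 3.16% of the genes tested did. The Acaca H3K27ac difference was 0.41 (SE 0.22, limma adjusted p = 0.55, exact permutation p = 0.056). A region inside Acaca, chr11:84247126-84248010, held H3K27ac in all 4 Fast and no Fed list. Among 447 H3K27ac regions of the member loci it was the only one of its kind (0.224%, against 0.40% of 112301 regions genome-wide). The reverse, all 4 Fed and no Fast list, was found once, inside Sqle at chr15:59319417-59320395 (0.224%, against 0.0837%). None of the 843 H3K9ac regions in the loci had either pattern. Regions present in all 8 lists made up 96 of the 447 (21.5%, against 14.6% genome-wide) in H3K27ac and 28 of the 843 (3.32%, against 1.52%) in H3K9ac. Elovl6 held 9 constant H3K27ac regions, Acaca and Tm7sf2 7 each, and Mvk and Nsdhl none.

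For tetracycline, no member passed the test in either mark. At gene ends 0 of 26 members were called in H3K27ac (0.794% of genes were, 1 member unadjusted) and 0 of 29 in H3K9ac (0.0%, 2 unadjusted). Of all genes tested there, 514 of 11840 in H3K27ac and 731 of 13204 in H3K9ac had an unadjusted p under 0.05. Over the loci 0 of 31 were called in both marks (0.0% of genes), with 2 unadjusted in H3K27ac, 951 genes unadjusted in H3K27ac, and 0 members and 101 genes in H3K9ac. Those 2 were Sqle, with 7, 7, 10 and 5 H3K27ac peaks without tetracycline and 4, 4, 2 and 3 with it, and Insig2, with 6, 9, 6 and 9 against 1, 4, 5 and 5. Neither gene's treated and untreated lists overlapped. The differences were −0.95 (SE 0.24) and −0.94 (SE 0.33), with limma adjusted p of 0.86 and 0.94. Sqle, Insig2 and Mvd were the 3 members whose 4 treated lists were all below the 4 untreated ones, as in 1.03% of genes tested. The median member difference was −0.17, against −0.16 over all genes.

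The interaction, the fasting difference with tetracycline minus that without it, called 0 members at gene ends in H3K27ac (0.642% of genes, 0 members unadjusted) and 0 in H3K9ac (0.0%, 5 unadjusted). At an unadjusted p under 0.05 the interaction had 426 of 11840 genes in H3K27ac and 707 of 13204 in H3K9ac. Over the loci it called 0 members and 0 genes in both marks (0.0%), with 0 and 1 members and 458 and 80 genes at an unadjusted p under 0.05. Within untreated mice 0 members were called for fasting in H3K27ac (0.971%, 0 unadjusted) and 0 in H3K9ac (0.454%, 0 unadjusted). Within treated mice 0 were called in H3K27ac (0.414%, 0 unadjusted) and 0 in H3K9ac (0.0%, 4 unadjusted). All genes at an unadjusted p under 0.05 numbered 654 in H3K27ac and 634 in H3K9ac within untreated mice. Within treated mice they numbered 391 and 688. With the 17249 highest-scoring peaks, H3K9ac calls for fasting were Srebf2 and Fdps without tetracycline (2.92% of genes) and Srebf2, Fasn, Cyp51 and Dhcr7 with it (2.98%), all lower in Fast lists, with log2 differences between −3.24 and −2.53. The 0 calls for the H3K9ac interaction under that setting (0.0%) mean that no difference between the states was shown for them.

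Of the lipid genes outside the 31, limma called 1 for fasting. Of 33 such genes (acetyl-CoA supply, SREBP proteases, desaturation, sterol efflux, uptake and esterification, and glycerolipid synthesis), 28 could be tested at gene ends in H3K27ac. Of these, 1 fell on fasting and none rose: Soat1, which esterifies cholesterol, at −1.02 (SE 0.09, limma adjusted p = 0.018). Of all genes tested there, 0.929% were called for fasting. Its peak covered 689 and 622 bp fed and 0 bp in both fasted lists without tetracycline, and 796 and 686 bp fed and 768 and 795 bp fasted with it. It also rose with tetracycline, by 1.22 (SE 0.09, limma adjusted p = 0.014, 0.794% of all genes called). Its interaction was 2.16 (SE 0.18, limma adjusted p = 0.021, 0.642% of all genes called). These calls depended on the setting: with the 32392 highest-scoring peaks per list the fasting difference was −0.55 (SE 0.87, limma adjusted p = 0.87), and within 2.5 kb of a gene end it was −0.16 (SE 0.14, limma adjusted p = 0.82). The limma adjusted p for fasting was 0.081 with lists centred, 0.061 with the block on list number and 0.21 with a pseudocount of 1000 bp. It was 0.063, 0.065 and 0.052 without the first untreated fed list, the first fed list with tetracycline or the second fasted list with it. In H3K9ac limma called 0 of 28 for fasting (0.0% of all genes tested), and 0 had an unadjusted p under 0.05. The median fasting difference of the 28 was 0.01 in H3K27ac and −0.11 in H3K9ac. The SREBP proteases Mbtps1 and Mbtps2 and the regulators Erlin1 and Erlin2 were marked by H3K27ac in all 8 lists.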

How the data were processed

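The data were 16 peak lists, 2 for each of 8 CUT&Tag samples. Each deposited list gave a chromosome, start and end in base pairs, a peak name of the MACS pattern and a score. The lists use mm10, and the submitters' processing notes name FastQC, Bowtie and SAMtools; the peak caller's version, its cutoff and its use of the IgG controls are not given in the sources used here. No list held a score under 50 (tested on the lists), so a gene without a peak has none above that score, which is not an absence of acetylation. The score has no stated unit and was used only to rank peaks within a list. The word "downsampled" occurs in the list names, with no depth stated.

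Peaks were joined to RefSeq gene extents (GRCm38.p6) with Python 3.11.15, numpy 2.4.6 and pandas 2.3.3. The quantities computed per gene and list were bp covered within 1 kb of either gene end and the number of peaks overlapping the gene body plus 50 kb on each side. They were fitted as log2(bp + 200) and log2(peaks + 1) with limma 3.58.1 in R 4.3.3, for genes with a peak in at least 2 of the 8 lists of a mark, with 4 group means per mark, so that all groups share 1 estimate of the spread. The contrasts were fasting, tetracycline and their interaction, two-sided, with Benjamini-Hochberg adjustment. The covered-length scale understates changes of short peaks, and coverage at 1 gene end stops at the width of its window, 2001 bp. Single genes also had exact permutation tests within tetracycline states. The counting and the fits were tested on simulated data. Start-site windows (250 bases before to 50 after a start) came from the RefSeq promoter table.

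Groups came from the sample titles and list numbers from list names. Same-numbered lists did not pair: correlations of their deviations from group means ran from −0.018 to 0.13 at gene ends in H3K27ac and 0.022 to 0.058 in H3K9ac (6 pairs each), and over loci from 0.074 to 0.27 and −0.093 to 0.15. The 31 genes, the related gene and marker lists, the tests and the alternatives were chosen with earlier results of these data known. Values in every list, for the mark and measure concerned, are given for Hmgcs1, Sqle, Srebf1, Srebf2, Insig1, Fasn, Scd1 and Scd2, for genes whose marked lists differ by 2 or more between Fed and Fast, for genes in at most 4 of 8 lists, for genes called in any fit (alternatives included), and for the extremes of locus peak number. Values were also shown for Idi1, Mvd and Acaca because their groups did not overlap. Those of Elovl6 in H3K9ac and Stard4 in H3K27ac were shown because their feeding groups did not overlap within tetracycline states. These choices were made after the values were seen. The alternatives were another score filter, peak number, peak width, window, pseudocount, low-value filter, scaling, a list-number block and leaving out lists. Start windows as a place for peaks were added after seeing the data.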

Additional observations from a re-analysis of the deposited data

Results flagged for a closer look

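At 4 genes the gene-end H3K9ac of both fasted lists lay on one side of both fed lists without tetracycline and on the other side with it. The test of that difference, the limma interaction, passed for none of the 4. The fasting difference with minus without tetracycline was −3.2005 for Dhcr7 (SE 0.61, limma adjusted p = 0.20), from 0.65 without to −2.55 with the drug. It was 2.2147 for Srebf1 (SE 0.72, limma adjusted p = 0.62), from −1.06 to 1.15, and 2.2742 for Elovl6 (SE 0.84, limma adjusted p = 0.79), from −0.37 to 1.90. It was 0.3362 for Hmgcs1 (SE 0.38, limma adjusted p = 1.0), from −0.23 to 0.11. The first pattern (Fast above Fed without the drug, below with it) occurred in 0.841% of the genes tested, and the second, that of the other 3, in 1.86%. The Srebf1 values do not include its annotated starts, which all lie more than 1 kb from a gene end.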

How the results depend on the processing

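Of 1510 values of single members for fasting over both tetracycline states under alternatives, 1326 stayed on their side of the threshold and within the spread between lists, 179 moved by more than it, 4 passed the threshold and 1 reversed and passed it: Scap H3K27ac, 0.07 with all peaks and −1.29 with equal peak numbers. For the other contrasts, 17 values of 10 members passed under alternatives and 0 with all peaks. With equal peak numbers, the contrasts concerned called 1.47 to 1.62% of the genes tested in H3K27ac and 2.92 and 2.98% in H3K9ac. Without peaks under 500 bp, H3K9ac fasting with tetracycline called 1.27%. Shares for the remaining settings are not given here. Among the 17 was the Scap H3K27ac interaction with equal peak numbers (2.46, limma adjusted p = 0.016). Also among them were the Mvk H3K27ac differences without the first fasted list with tetracycline (tetracycline −1.18, interaction −2.61), which left 1 fasted list, without a peak. In all, 250 of the 1510 had the opposite sign to the value with all peaks, and none of those differences was called with all peaks. The cause of these shifts was not tested.

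With equal numbers of top peaks, genes called in H3K27ac at gene ends went from 110 to 197 for fasting, from 94 to 175 for tetracycline and from 76 to 158 for the interaction, with 1 member each (0 with all peaks). Over the H3K27ac loci they went from 0 to 113, 74 and 75, and in H3K9ac at gene ends for fasting from 0 to 226 genes and 2 members. The H3K9ac median over member loci went from 0.38 to −0.38 and members marked from −1.0 to −9.25. Centring lists left 50, 38 and 28 H3K27ac gene-end calls and 1 locus call for fasting. The fasting calls in H3K27ac split 66 higher to 44 lower with all peaks, 21 to 29 centred and 66 to 131 with equal peak numbers. The block on list number left 7, 0 and 0 H3K27ac gene-end calls, and changed no member's call. Other alternatives for fasting in H3K27ac gave 7 gene-end calls (pseudocount of 1000 bp), 40 (window of 2.5 kb), and locus calls of 61 (no filter), 35 (upper 0.5 of each list by score), 28 (peaks of 500 bp or more) and 4 (20 kb flanks). In H3K9ac, gene-end calls for fasting were 186 (no filter), 30 (upper 0.5 by score) and 34 (500 bp).

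Leaving out 1 list gave 24 to 518 H3K27ac gene-end calls for fasting, 0 to 549 for tetracycline and 0 to 505 for the interaction, with 0 to 1 member each, and 0 to 436 H3K9ac calls for fasting with 0 to 1 member. Every highest value came without the first fasted list with tetracycline. Leaving out single lists or all lists of 1 number moved members marked, Fast minus Fed, between −2.0 and 1.5 in H3K27ac and between −5.0 and 3.0 in H3K9ac. The median over member loci then lay between −0.17 and 0.61 and between −0.46 and 1.29. Without that first H3K9ac list, the fasting differences with tetracycline were −2.56 for Mvk, −2.66 for Msmo1 and −3.24 for Stard4. Each then rested on 1 fasted list, which had no H3K9ac peak at these genes. With the upper 0.5 of each list by score Fdps was called for fasting without tetracycline (−2.56, limma adjusted p = 0.041). The share of all genes called in that contrast under this setting is not given here. Counts of calls without all lists of 1 number have no value, since no residual degrees of freedom remain, and peaks on other sequences change nothing because the gene table covers none. The lone list of a group left with 1 was assumed to vary like the other groups.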

Other observations

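The authors' score placed the gene-end peaks of some members near the top of their lists. The strongest gene-end peak of Dhcr7 ranked within the top 3.32% of H3K27ac peaks by median (0.854 to 6.96% over 8 lists), that of Stard4 within 4.47%, Hsd17b7 within 5.19% and Hmgcs1 within 6.06%. In H3K9ac the peaks of Msmo1 (7 lists) and Idi1 (8 lists) ranked within the top 2.19% and 3.89% by median. At the other end, the single Scd2 H3K27ac peak ranked at 95.8% of its list. By list, the median rank of marked members was 14.8 to 40.0% in H3K27ac and 13.0 to 33.0% in H3K9ac, and that of all marked genes 17.3 to 33.4% and 10.8 to 26.9%.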
